A study of Gallus gallus with 9 samples.

Results

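The 200 most abundant nuclear transcripts of the chick thymus are described here. They were chosen by level from those of 25016 genes that met the conditions below. Genes qualified if they had an Ensembl identifier, a gene length of at least 300 bases, and a place outside the mitochondrial genome, the sex chromosomes, chromosome 16 and a set of the smallest chromosomes. The 18812 that qualified were ranked by median FPKM over 9 libraries. FPKM is the number of sequenced fragments of a gene scaled by its length and by a total for the library. The level of these transcripts is therefore a description, and only differences between groups, which the ranking did not use, were tested. Ensembl nuclear genes left out by the conditions held 16.6% to 19.6% of all gene fragments per library. None of them could enter the list.

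Thymus RNA came from Ross 308 broiler chicks, a fast-growing meat breed, at 21 days of age, in 3 groups of 3 libraries. CON chicks received the basic diet. LPS chicks were treated with lipopolysaccharide, a component of the outer membrane of Gram-negative bacteria that sets off innate immune responses. GEN chicks were treated with lipopolysaccharide and genistein, a soy isoflavone that binds oestrogen receptors. Dose, route and timing are not given in the labels, nor is any identity of the animals beyond a replicate number, so the p-values given here reflect only how far these samples differ from each other, which may be technical variation.

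The thymus takes in blood-borne progenitors and turns them into T cells, most of them passing through a stage of rapid division. In dividing vertebrate cells, the most abundant nuclear messenger RNAs usually encode ribosomal proteins, translation factors, cytoskeletal proteins and enzymes of energy metabolism. Many ribosomal protein transcripts are short, and their translation follows the growth state of the cell. The files pair none of the identifiers with a gene name, so it is not stated here which of the 200 belong to these classes. For the same reason the tissue label could not be set against defining markers. Genes are given by identifier, with positions on GRCg6a, the chicken genome build in the submitters' processing notes.

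Before any comparison, 1 library differed clearly from the rest. Across the 13506 genes tested, the correlation of CON 3 with each of the others on the log2(FPKM + 1) scale was 0.877 to 0.888, against 0.957 to 0.984 among the other 8. Across the 200 transcripts these ranges were 0.785 to 0.820 and 0.959 to 0.990. The library total that the authors divided by was 0.767 times the sum of gene fragments in CON 3 and 1.0095 to 1.09 times in the others. FPKM values of CON 3 are therefore higher, relative to its own fragments, than those of the other libraries. Results below are given with and without it.

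The 200 median levels ran from 228 to 3835 FPKM, with a middle value of 511, while qualifying genes that were tested had a median of 11.6 FPKM. A level of at least 1000 FPKM was reached by 53 of the 200 and a level of at least 500 by 102. The limit at rank 200 lay in a dense part of the ranking. The last 3 inside, ENSGALG00000015906, ENSGALG00000027561 and ENSGALG00000031853, had medians of 228.2, 227.7 and 227.6 FPKM. The first 3 outside, ENSGALG00000004769, ENSGALG00000012245 and ENSGALG00000003085, had 227.5, 227.4 and 227.2 FPKM. Outside CON 3, no member had fewer than 1390 fragments in any library, so counting error alone gives a coefficient of variation of at most 2.68%.

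The highest median belonged to ENSGALG00000030878, a gene of 527 bases on chromosome 2 (145698580 to 145699798, plus strand). It measured 3917, 3835 and 11871 FPKM in CON 1 to 3, 4095, 4108 and 3052 in LPS 1 to 3, and 3352, 3135 and 3222 in GEN 1 to 3. It was the highest qualifying gene in every library but LPS 3, where it ranked 2. Outside CON 3 its highest value was 1.35 times its lowest.

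ENSGALG00000028749 followed, with 2114 bases on chromosome 18 (9187889 to 9190934, plus strand). It measured 3612, 3545 and 3024 FPKM in CON 1 to 3, 3474, 2855 and 3146 in LPS 1 to 3, and 3140, 3056 and 2783 in GEN 1 to 3. It was the exception among the first 10 in that CON 3 did not exceed the other 8 libraries. Its rank among qualifying genes was 2 in CON 1 and 37 in CON 3.

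ENSGALG00000015917 had rank 3 by FPKM and held the most fragments of any member in every library, with a gene length of 3271 bases on chromosome 3 (81503064 to 81509231, plus strand). It measured 3518, 3340 and 3811 FPKM in CON 1 to 3, 3239, 2876 and 2846 in LPS 1 to 3, and 2677, 2570 and 2351 in GEN 1 to 3. No library of one group overlapped another group, with CON highest and GEN lowest. Its share of all gene fragments was 0.820% to 1.16%.

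The 7 other genes of the first 10 had medians between 2548 and 2827 FPKM. ENSGALG00000009621 (chromosome 14, 4573328 to 4577556, minus strand, 1928 bases) measured 3096, 2951 and 4670 FPKM in CON 1 to 3, 3021, 2655 and 2653 in LPS 1 to 3, and 2453, 2313 and 2079 in GEN 1 to 3. ENSGALG00000006179 (chromosome 11, 18734052 to 18738360, plus strand, 953 bases) measured 3022, 3041 and 6874 FPKM in CON 1 to 3, 2982, 2771 and 2528 in LPS 1 to 3, and 2414, 2346 and 2376 in GEN 1 to 3. In both, every GEN library lay below every LPS library, and in the second every LPS library also lay below every CON library. ENSGALG00000002157 (chromosome 10, 1790978 to 1793271, minus strand, 790 bases) measured 2792, 2997 and 6255 FPKM in CON 1 to 3, 2684, 2548 and 2394 in LPS 1 to 3, and 2291, 2138 and 2258 in GEN 1 to 3. ENSGALG00000037805 (unplaced scaffold, minus strand, 579 bases) measured 2904, 2892 and 9572 FPKM in CON 1 to 3, 2633, 2859 and 2587 in LPS 1 to 3, and 2426, 2383 and 2312 in GEN 1 to 3. In these 2 as well, every CON value lay above every LPS value, and every LPS value above every GEN value.

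The remaining 3 were more scattered. ENSGALG00000014432 (chromosome 2, 111204409 to 111207110, minus strand, 542 bases) measured 2945, 2940 and 4929 FPKM in CON 1 to 3, 3105, 2333 and 2220 in LPS 1 to 3, and 2400, 2385 and 2827 in GEN 1 to 3. ENSGALG00000041611 (chromosome 23, 313700 to 315602, minus strand, 492 bases) measured 3051, 2595 and 9228 FPKM in CON 1 to 3, 3284, 2372 and 2530 in LPS 1 to 3, and 2986, 2032 and 2666 in GEN 1 to 3. For the first of them every GEN value lay below every CON value but LPS spanned both, and for the second all groups overlapped. ENSGALG00000037991 (chromosome 12, 9530099 to 9530746, minus strand, 648 bases) measured 2999, 3038 and 3176 FPKM in CON 1 to 3, 2607, 1935 and 2650 in LPS 1 to 3, and 2610, 2304 and 1547 in GEN 1 to 3. Here every CON value lay above every LPS and GEN value, including those of CON 1 and CON 2. Of the first 10 genes, 4 overlap another gene model on their own strand, so some of their fragments may not be separable from those models.

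**Figure D1:**
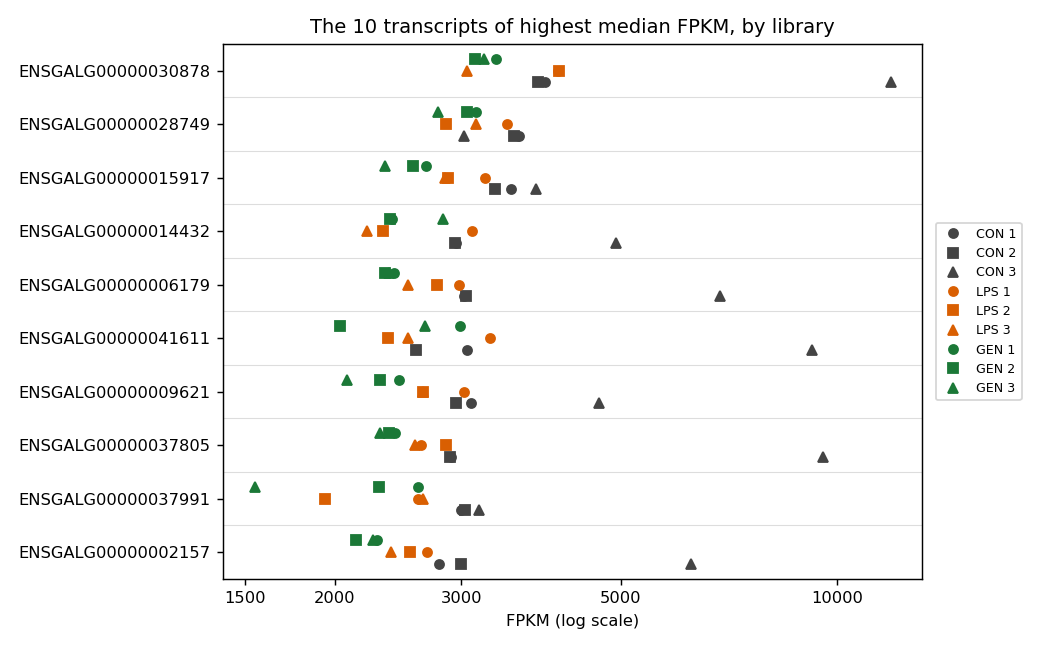
FPKM (log scale) of the 10 transcripts of highest median in each of the 9 libraries, with colour for the group and symbol for the replicate number. CON 3 exceeds the other 8 libraries in 9 of the 10, against 74.5% of all members and 32.7% of the other qualifying genes tested. Every GEN library lies below every CON library in 8 of the 10, against 50.5% of all members and 12.3% of all genes tested.

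The 200 transcripts held 23.7%, 23.3% and 28.2% of all gene fragments in CON 1 to 3, 23.3%, 22.01% and 21.8% in LPS 1 to 3, and 21.6%, 21.1% and 20.7% in GEN 1 to 3. The groups did not overlap, although LPS 1 lay just under CON 2. The 95% Wilson intervals of these 2 libraries, which cover counting error only, were 23.249% to 23.281% and 23.291% to 23.325%. The mean share was 25.1% ± 2.71 in CON, 22.4% ± 0.787 in LPS and 21.1% ± 0.456 in GEN (SD, n = 3 each). Without CON 3, the CON mean was 23.5% ± 0.274 (SD, n = 2). In bulk tissue, fewer cells of a type and less RNA per cell cannot be told apart, and a share says nothing of the total amount of RNA.

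The difference in share was -2.70 percentage points in LPS vs CON, -1.25 in GEN vs LPS and -3.95 in GEN vs CON. Exact two-sided permutation tests gave p = 0.1 for each, the smallest that 3 libraries against 3 allow, and 0.1 after Benjamini-Hochberg adjustment over the 3 comparisons. No difference therefore passed the threshold of 0.05. Much of the size of LPS vs CON and of GEN vs CON came with CON 3. Without it the difference was -1.14 points in LPS vs CON (exact permutation p = 0.2) and -2.39 points in GEN vs CON (exact permutation p = 0.1, again the smallest possible). Without LPS 1 the difference in GEN vs LPS was -0.797 points (exact permutation p = 0.2). In LPS vs CON the exact permutation p was 0.3 without LPS 1 and 0.4 without LPS 2 or without LPS 3. In GEN vs LPS and in GEN vs CON the exact permutation p was at most 0.2 under any setting.

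Over nuclear gene fragments alone, the shares of the 200 were 23.7% to 29.3% in CON, 22.2% to 23.6% in LPS and 21.1% to 21.97% in GEN (exact permutation p = 0.1 in each comparison, the smallest possible). Other measures also differed between libraries, and beyond that alternative their part in the share was not tested. Mitochondrial genes held 1.43% and 1.55% of gene fragments in CON 1 and CON 2, 1.52% to 1.78% in LPS and 1.81% to 1.93% in GEN, and 3.94% in CON 3. Genes predicted by the submitters held 1.96% and 2.33% in CON 1 and CON 2, 1.92% to 3.23% in LPS and 2.89% to 3.68% in GEN, and 5.39% in CON 3. The authors' library total was 0.767 times the gene fragments in CON 3. It was 1.0095 and 1.02 times in CON 1 and CON 2, 1.03 to 1.06 times in LPS and 1.05 to 1.09 times in GEN. Across the 9 libraries this ratio ran nearly opposite to the share, being lowest in CON 3, where the share was highest. Whether it bears on the share was not tested.

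**Figure D2:**
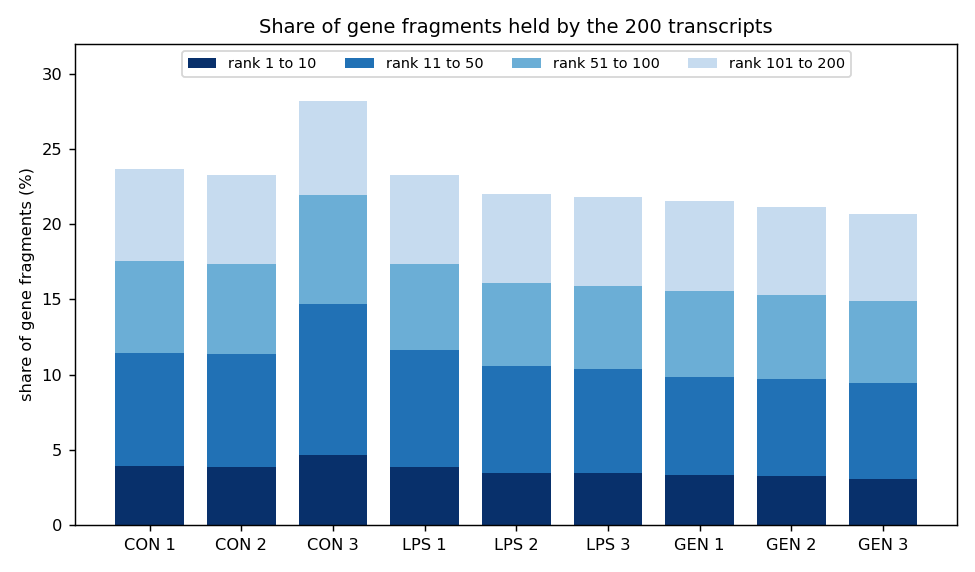
Share of all gene fragments (%) held by the 200 transcripts in each library, stacked by rank of median FPKM. The bars run from 20.7% in GEN 3 to 28.2% in CON 3, and with all libraries ranks 1 to 50 take up most of each difference between group means. Without CON 3 this does not hold for LPS vs CON.

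The share was set out by rank. Ranks 1 to 10 held 4.15% ± 0.421 of gene fragments in CON, 3.59% ± 0.235 in LPS and 3.21% ± 0.154 in GEN. Ranks 11 to 50 held 8.36% ± 1.48 in CON, 7.26% ± 0.470 in LPS and 6.45% ± 0.0605 in GEN (SD, n = 3 each). In this tier LPS overlapped CON, as LPS 1, at 7.78%, lay above CON 1 and CON 2, at 7.505% and 7.512%. Every GEN library lay below every LPS library there. Ranks 51 to 100 held 6.45% ± 0.676 in CON, 5.62% ± 0.0900 in LPS and 5.59% ± 0.140 in GEN, with every CON library above every LPS and GEN library and overlap between LPS and GEN. With CON 1 and CON 2 alone, these 3 tiers held 3.90%, 7.51% and 6.06% in CON. For ranks 101 to 200 the means were 6.10% ± 0.164, 5.89% ± 0.0122 and 5.87% ± 0.119, and GEN overlapped both other groups. The next 200 genes by the same ranking held 6.42% ± 0.571, 6.60% ± 0.0991 and 6.54% ± 0.206, with overlap between all 3 groups.

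The difference was spread over many members. Leaving CON 3 out, 166 members had a lower mean share of gene fragments in GEN than in CON and 34 a higher one, adding up to -2.76 and 0.373 points. The same count was not made over all genes. The 10 members with the most negative differences made up 35.3% of the negative sum. Within the 200, 44 members held 50% of the member fragments in CON 1 and CON 2, 44 or 45 did in LPS, and 47 did in each GEN library.

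LPS vs CON sets chicks treated with lipopolysaccharide against chicks on the basic diet. Across all genes, limma's test at an adjusted p under 0.05 was passed by no member and by 0 of 13506 genes (0%). The smallest adjusted p of a member was 0.637. At an unadjusted p under 0.05 there was 1 member higher (ENSGALG00000033212, described below) and 12 lower in LPS, which are 0.5% and 6% of the 200, where 2.45% and 2.07% of all genes tested were called (4.52% in both directions). limma-voom on recovered fragments gave 1 higher and 11 lower, against 3.86% and 0.696% of all genes. Without CON 3 there were 1 higher and 23 lower, against 2.67% and 3.15% of all genes. The count of 13 in both directions (6.5%) depended on single libraries. It was 39 (19.5%, against 9.74% of all genes) without CON 1 and 36 (18%, against 11.6%) without CON 2. It was 3 (1.5%) without LPS 2 or without LPS 3, against 2.74% and 2.52%, 7 (3.5%, against 3.5%) without LPS 1 and 8 (4%, against 3.32%) without GEN 1. In both directions together, leaving out any LPS library thus gave a share at or below that of all genes. Among lower calls alone the members stayed above all genes. They were 3%, 1.5% and 1.5% without LPS 1, LPS 2 and LPS 3, against 1.42%, 1.14% and 0.970% of all genes.

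The levels of most members were lower in LPS, with a median log2 fold change of -0.33 on the log2(FPKM + 1) scale against 0.00079 over all genes tested. The fold change was below 0 for 173 of 200 members (86.5%), where it was for 49.9% of all genes. Without CON 3 the median of the members was -0.12, with 163 below 0, against 51.6% of all genes. Scaling each library by its sum of fragments moved the median of all genes to 0.16, and the members then lay 0.30 below it. With this scaling 141 of 200 members were below 0, against 31.4% of all genes. Quantile normalization gives each rank the same value in every library. It left 86 of 200 below 0, against 52.3% of all genes, and a median of 0.03.

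For 65 members every LPS library lay below every CON library, and for 3 every LPS library lay above. These are 32.5% and 1.5% of the members, while 6.76% and 5.47% of all genes tested did so. Without CON 3 the counts were 82 and 6, against 12.4% and 9.68% of all genes. These counts, like those in the other comparisons, were made on FPKM, which depends on the authors' library total. They were not made on shares of gene fragments. Of the 3 higher members, ENSGALG00000006512 on chromosome 24 (3102875 to 3110564), named because the count is small, measured 377, 401 and 389 FPKM in CON 1 to 3 and 428, 461 and 477 in LPS 1 to 3.

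The other 2 are the members with the smallest p among those higher in LPS. ENSGALG00000033212 (chromosome 5, 49673894 to 49685640, minus strand, 4681 bases) measured 218, 243 and 109 FPKM in CON 1 to 3, 286, 318 and 351 in LPS 1 to 3, and 385, 240.2 and 327 in GEN 1 to 3. Its log2 fold change was 0.82 (SE 0.31) with a limma adjusted p of 0.637, and 0.46 (SE 0.18) without CON 3, where its level was lowest. ENSGALG00000039228 (chromosome 5, 28553320 to 28555369, plus strand, 1623 bases) measured 378, 373 and 258 FPKM in CON 1 to 3, 464, 417 and 399.6 in LPS 1 to 3, and 395, 345 and 451 in GEN 1 to 3. The log2 fold change was 0.36 (SE 0.19) with a limma adjusted p of 0.637, and 0.18 (SE 0.12) without CON 3 and 0.63 under quantile normalization.

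Of the members lower in LPS, ENSGALG00000002771 (chromosome 8, 4371681 to 4375045, minus strand, 865 bases) measured 861, 1022 and 2181 FPKM in CON 1 to 3, 646, 646 and 495 in LPS 1 to 3, and 701, 585 and 706 in GEN 1 to 3. limma gave a log2 fold change of -1.07 (SE 0.33) with a limma adjusted p of 0.637, and -0.67 (SE 0.15) without CON 3 and -0.61 under quantile normalization. ENSGALG00000010774 (chromosome 8, 25524304 to 25575125, minus strand, 1824 bases) measured 372, 379.9 and 425 FPKM in CON 1 to 3, 312, 272 and 304 in LPS 1 to 3, and 326, 298 and 316 in GEN 1 to 3. Here the log2 fold change was -0.41 (SE 0.13), with a limma adjusted p of 0.637, and -0.35 (SE 0.085) without CON 3 and -0.17 under quantile normalization. In both, the CON libraries lay above all LPS and all GEN libraries.

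**Figure D3:**
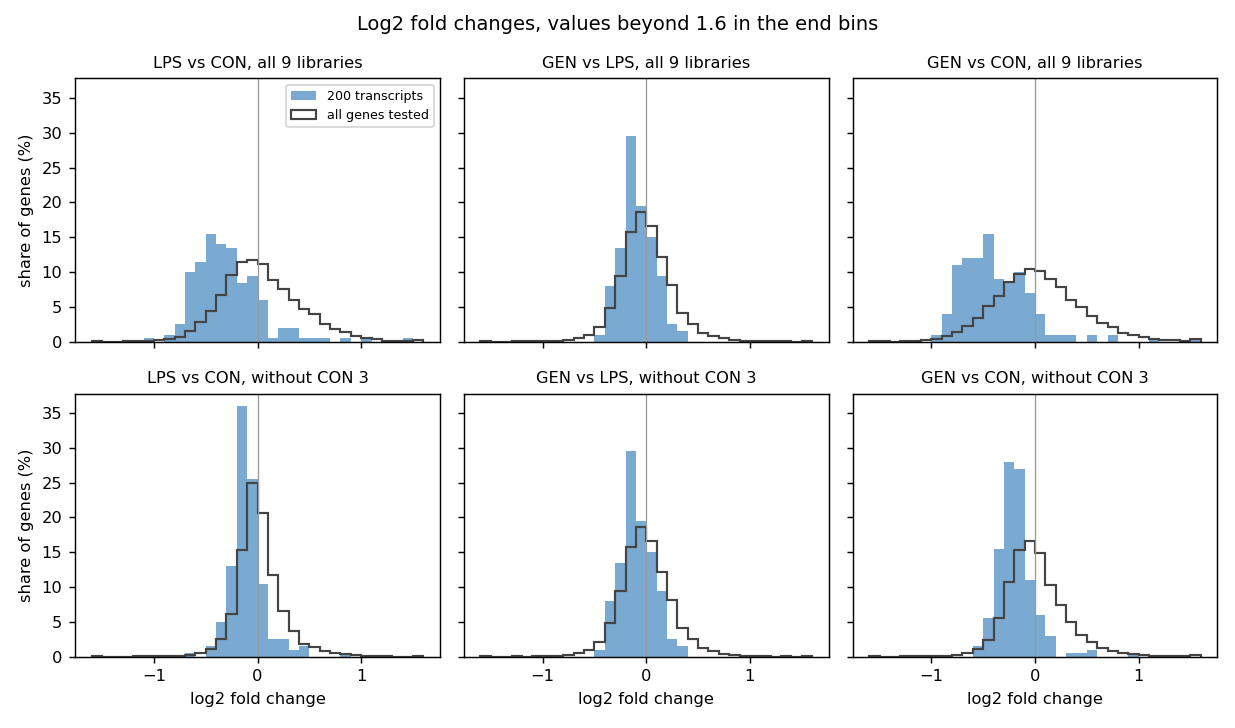
Share of genes (%) by log2 fold change for the 200 transcripts (filled) and all 13506 genes tested (line), in each comparison with all 9 libraries and without CON 3. The filled distributions lie to the left of the lines, with medians of -0.33, -0.11 and -0.45 with all libraries and -0.12, -0.11 and -0.20 without CON 3. Under quantile normalization the medians were 0.03, -0.02 and 0.05.

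GEN vs LPS sets chicks with genistein on top of lipopolysaccharide against those with lipopolysaccharide alone. No member and 0 of 13506 genes (0%) passed limma's test at an adjusted p under 0.05. At an unadjusted p under 0.05 there was 1 member higher (ENSGALG00000016231) and 0 lower, where 1.74% and 1.5% of all genes tested were called (3.24% in both directions), and limma-voom gave 1 higher and 3 lower, against 2.17% and 1.24% of all genes. CON 3 bears on GEN vs LPS solely by the common variance. Leaving it out, the median standard error of a member was 0.096 on the log2 scale in place of 0.24, and 3 members higher and 32 lower had an unadjusted p under 0.05, against 6.32% and 7.37% of all genes, with no adjusted p under 0.292.

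The median log2 fold change of the members was -0.11, against -0.02 over all genes tested. It was below 0 for 143 of 200 members (71.5%), where it was for 53.1% of all genes. Quantile normalization gave -0.02 and 103 of 200, against 51.9% of all genes. Every GEN library lay below every LPS library for 48 members and above for 5, which are 24% and 2.5% of the members, against 11.3% and 8.91% of all genes. The 5 higher ones were ENSGALG00000016231, ENSGALG00000015362 and, named because the count is small, ENSGALG00000009250, ENSGALG00000011036 and ENSGALG00000031874.

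ENSGALG00000016231 (chromosome 1, 113327072 to 113346140, minus strand, 4514 bases) measured 276, 299 and 275 FPKM in CON 1 to 3, 289.8, 359 and 335 in LPS 1 to 3, and 383, 437 and 473 in GEN 1 to 3. Its log2 fold change was 0.39 (SE 0.14) in GEN vs LPS, with a limma adjusted p of 1.00. ENSGALG00000015362 (chromosome 1, 88912485 to 88924526, plus strand, 1072 bases) measured 373, 363 and 298 FPKM in CON 1 to 3, 322, 299.5 and 354 in LPS 1 to 3, and 376, 368 and 396 in GEN 1 to 3. Here the log2 fold change was 0.23 (SE 0.14), with a limma adjusted p of 1.00. The first lay highest in GEN, while for the second the GEN range, 368 to 396 FPKM, overlapped that of CON 1 and CON 2, 363 and 373.

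Of the members lower in GEN than in LPS, ENSGALG00000017644 (chromosome 11, 16818088 to 16836168, minus strand, 1829 bases) measured 496, 471 and 451 FPKM in CON 1 to 3, 485, 524 and 453 in LPS 1 to 3, and 394, 437 and 354 in GEN 1 to 3. Its log2 fold change was -0.31 (SE 0.14), with a limma adjusted p of 1.00. ENSGALG00000005490 (chromosome 14, 6539294 to 6541961, minus strand, 932 bases) measured 2426, 2478 and 1811 FPKM in CON 1 to 3, 2687, 2100 and 2192 in LPS 1 to 3, and 1925, 1594 and 1809 in GEN 1 to 3. The log2 fold change was -0.39 (SE 0.21), with a limma adjusted p of 1.00, and -0.21 under quantile normalization. In both, GEN lay below every LPS library, and CON overlapped LPS. A gene model on the other strand overlaps ENSGALG00000005490, and since no strand setting is given, reads of either may have been counted for it.

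GEN vs CON sets chicks with both agents against those on the basic diet. It shares the CON libraries with the first comparison and the GEN libraries with the second. No member and 0 of 13506 genes (0%) passed limma's test at an adjusted p under 0.05, and the smallest adjusted p of a member was 0.452. At an unadjusted p under 0.05 there were 2 members higher (ENSGALG00000016231 and ENSGALG00000033212) and 48 lower in GEN, which are 1% and 24% of the members, against 4.68% and 6.12% of all genes tested (10.8% in both directions). limma-voom gave 2 higher and 31 lower, against 8.4% and 2.07% of all genes. With library quality weights 1 member (0.5%) passed an adjusted p of 0.05, against 0.4% of all genes. Without CON 3 there were 2 higher and 81 lower, against 6.57% and 9.36% of all genes. Single libraries moved the count of 50 by over 1.5 times, CON 1 excepted: it was 7 (3.5%, against 5.63% of all genes) without GEN 2 and 12 (6%, against 5.02%) without GEN 3. It was 23 (11.5%) without GEN 1 or without LPS 3, against 7.72% and 7.73%, 26 (13%, against 8.25%) without LPS 2, 29 (14.5%, against 9.3%) without LPS 1 and 94 (47%, against 19.9%) without CON 2. In both directions together, the share of members was thus below that of all genes without GEN 2 and close to it without GEN 3. Among lower calls alone it was 2.5% against 2.64% of all genes without GEN 2, and 5.5% against 2.58% without GEN 3.

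The median log2 fold change of the members was -0.45, against 0.008 over all genes. It was below 0 for 180 of 200 members (90%), where it was for 49.2% of all genes. Without CON 3 the median was -0.20, with 177 below 0, against 52.9% of all genes. With libraries scaled by their sum of fragments the median of all genes was 0.18, and the members lay 0.43 below it. With this scaling 146 of 200 members were below 0, against 31.2% of all genes. Quantile normalization gave a median of 0.05 and 86 of 200 below 0, against 51.7% of all genes. Every GEN library lay below every CON library for 101 members and above for 1, ENSGALG00000016231, which are 50.5% and 0.5% of the members, against 12.3% and 8.83% of all genes. Without CON 3 the counts were 117 and 4, against 20.4% and 15.6% of all genes. As in LPS vs CON, these counts were made on FPKM and not on shares of gene fragments.

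In GEN vs CON, members of the upper ranks lay lowest. The median log2 fold change in GEN vs CON was -0.67 for ranks 1 to 10, -0.53 for ranks 11 to 50, -0.45 for ranks 51 to 100 and -0.31 for ranks 101 to 200. Without CON 3 it was -0.32, -0.27, -0.19 and -0.18. All of the first 10 were below 0 in both fits, and of ranks 11 to 50 there were 40 of 40 with CON 3 and 38 of 40 without it. Shorter members lay lower too in this comparison. The median was -0.60 for the 71 members under 1000 bases, -0.42 for the 84 from 1000 to below 2000 bases and -0.14 for the 45 longer ones, and -0.23, -0.20 and -0.16 without CON 3. For the other qualifying genes tested, the medians without CON 3 had the same order, at -0.055, -0.046 and -0.006. Of the first 10 members, 7 were under 1000 bases, and rank and length were not separated here. Both orders also held in LPS vs CON with all libraries, and that by length in GEN vs LPS. In GEN vs LPS the medians by rank were -0.18, -0.18, -0.04 and -0.10, out of order. In LPS vs CON without CON 3 neither order held, with -0.16, -0.12, -0.14 and -0.09 by rank and -0.07, -0.14 and -0.13 by length.

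The members with the smallest p among those lower in GEN vs CON were ENSGALG00000017330 and ENSGALG00000010077. The first (chromosome 1, 196638370 to 196645721, plus strand, 1169 bases) measured 2593, 2383 and 3777 FPKM in CON 1 to 3, 2533, 2143 and 2106 in LPS 1 to 3, and 1830, 1626 and 1656 in GEN 1 to 3. Its log2 fold change was -0.75 (SE 0.22), with a limma adjusted p of 0.452, and -0.55 (SE 0.12) without CON 3 and -0.13 under quantile normalization. The second (chromosome 4, 33235392 to 33239654, plus strand, 1974 bases) measured 1739, 1574 and 2066 FPKM in CON 1 to 3, 1517, 1356 and 1343 in LPS 1 to 3, and 1216, 1257 and 1198 in GEN 1 to 3. For it the log2 fold change was -0.54 (SE 0.17), with a limma adjusted p of 0.452, and it was 0.10 under quantile normalization. For both, every GEN library lay below every other library, and both overlap other gene models on their own strand (3 and 1).

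Of those higher in GEN than in CON, ENSGALG00000016231 had a log2 fold change of 0.60 (SE 0.14), with a limma adjusted p of 0.452, and 0.58 (SE 0.12) without CON 3. ENSGALG00000033212 had 0.79 (SE 0.31), with a limma adjusted p of 0.452, and 0.43 (SE 0.18) without CON 3. The first was at 283 ± 13.6 FPKM in CON and 431 ± 45.1 in GEN, and the second at 190.1 ± 71.8 and 317 ± 72.9 (SD, n = 3 each). GEN 2, at 240.2 FPKM, lay within the CON range for the second.

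Between libraries of one group the members varied little outside CON 3. The median within-group SD on the log2(FPKM + 1) scale was 0.11 for the members, 0.12 for the next 200 genes and 0.16 for the 10317 other qualifying genes tested, and with CON 3 it was 0.30, 0.23 and 0.28. The highest value outside CON 3 was less than 1.5 times the lowest in 155 of 200 members, with a median of 1.35. The steadiest were ENSGALG00000004952, with 921 to 1003 FPKM over those 8 libraries, and ENSGALG00000008684, with 647 to 719 FPKM. The first stood at 2662 FPKM in CON 3 and the second at 768 FPKM.

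A 2-fold or larger range outside CON 3 was found in 7 members, a set chosen after their values were seen. ENSGALG00000043234 (chromosome 14, 12510348 to 12511196, plus strand, 597 bases) measured 1115, 108 and 1631 FPKM in CON 1 to 3, 324, 475 and 653 in LPS 1 to 3, and 766, 313 and 187 in GEN 1 to 3. Its range outside CON 3 was 10.3-fold and cut across the groups. ENSGALG00000007114 (chromosome 24, 5140181 to 5141930, minus strand, 1239 bases) measured 518, 438 and 1820 FPKM in CON 1 to 3, 1307, 395 and 427 in LPS 1 to 3, and 1151, 461 and 689 in GEN 1 to 3. It stood high in 1 library of each group.

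ENSGALG00000049450, the shortest member with 312 bases (chromosome 15, 8214032 to 8214343), measured 838, 1171 and 3830 FPKM in CON 1 to 3, 2950, 1077 and 855 in LPS 1 to 3, and 1174, 1375 and 1372 in GEN 1 to 3. ENSGALG00000050515, with 348 bases on an unplaced scaffold, measured 191, 216 and 3747 FPKM in CON 1 to 3, 765, 282 and 232 in LPS 1 to 3, and 369, 420.0 and 355 in GEN 1 to 3. LPS 1 was the highest library outside CON 3 for both. It was also the highest for ENSGALG00000008911, with 547 FPKM against 222 to 414 in the other 7, and for ENSGALG00000005204, with 575 FPKM against 249 to 527. The set also held ENSGALG00000002771, described above.

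**Figure D4:**
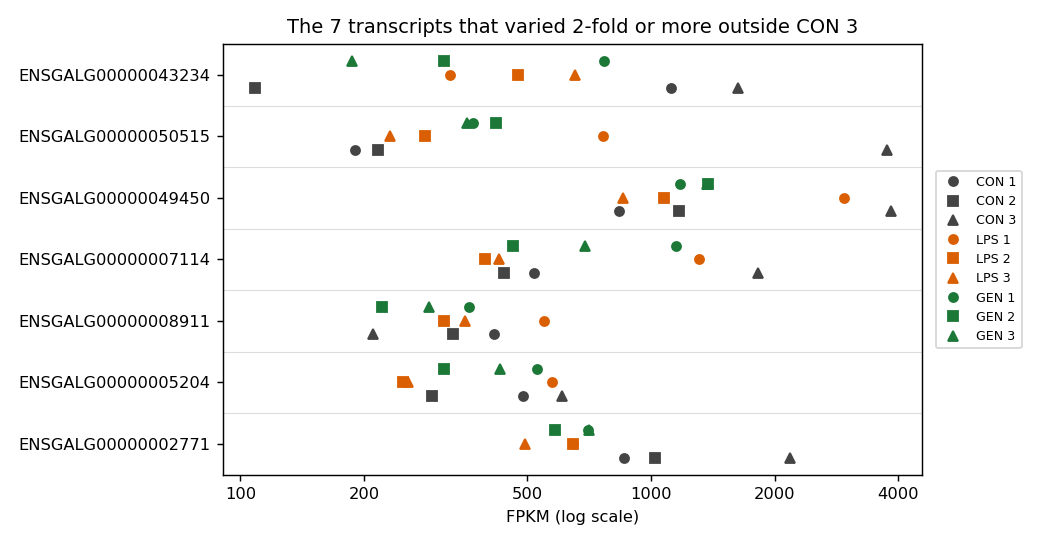
FPKM (log scale) in each library of the 7 transcripts whose highest value outside CON 3 was at least 2 times the lowest, with colour for the group and symbol for the replicate number. ENSGALG00000043234 runs from 108 to 1115 FPKM within CON 1 and CON 2 alone, and LPS 1 is the highest library outside CON 3 in 5 of the 7.

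CON 3 departed from the other libraries at most members. It lay above all 8 others for 149 members (74.5%) and below them for 27 (13.5%), while for the other qualifying genes tested these shares were 32.7% and 39.0%. As shares of gene fragments, which do not depend on the authors' total, the numbers were 113 above and 53 below. At least 3 times the median of the others was reached by 26 members. These counts of 113, 53 and 26 were not made for the other genes. Only 160 of the 200 were among the 200 highest genes within CON 3, against 183 to 199 in the other libraries, and 169 were among the 200 highest in all 8 others. The 40 members that dropped out had a median length of 2256.5 bases, and the 40 genes that took their places in CON 3 one of 804.5 bases.

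The departure went with gene length. The median difference of CON 3 from the mean of the other 8 on the log2(FPKM + 1) scale was 1.32 for the 71 members under 1000 bases, 0.76 for the 84 from 1000 to below 2000 bases and 0.15 for the 45 longer ones. CON 3 was above all others for 64 of the first class and 21 of the last. For the other qualifying genes tested the medians were 0.38, 0.20 and -0.17. The longest member, ENSGALG00000004871 with 4875 bases, stood above the median of its class with a difference of 1.65. It measured 855 FPKM in CON 3 and 228 to 308 elsewhere.

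The members farthest from the others in CON 3 differed by more than any length class. ENSGALG00000007938 (chromosome 5, 19742333 to 19745458, plus strand, 3126 bases) measured 836, 704 and 19.7 FPKM in CON 1 to 3, 536, 599.6 and 729 in LPS 1 to 3, and 754, 704 and 697 in GEN 1 to 3. Its rank among qualifying genes was 71 in CON 1 and 3467 in CON 3. ENSGALG00000008290 (chromosome 4, 14121934 to 14142349, minus strand, 1062 bases) measured 641, 519.7 and 52.7 FPKM in CON 1 to 3, 529, 502 and 632 in LPS 1 to 3, and 628, 519 and 602 in GEN 1 to 3. These 2 were the members at less than 0.1 times the median of the other 8. At the other end, ENSGALG00000050515 stood 11.8 times above that median in CON 3, and ENSGALG00000047833 (354 bases, unplaced scaffold) 4.33 times, with 1305 FPKM against 220.2 to 386.

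**Figure D5:**
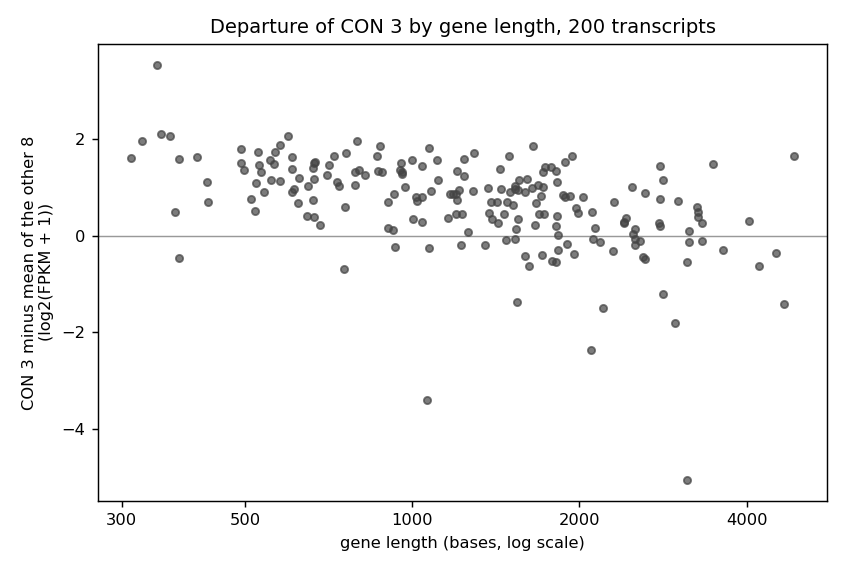
Difference of CON 3 from the mean of the other 8 libraries on the log2(FPKM + 1) scale (vertical axis) against gene length in bases (log scale) for the 200 transcripts, one point each. Points under 1000 bases lie mostly above 0, with a median of 1.32, and those of 2000 bases or more around a median of 0.15, with the lowest point at -5.06.

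In their genomic features the members were short and compact, though length enters the FPKM by which they were chosen. Their median gene length was 1373.5 bases, against 1804 for the next 200 genes and 2394 for the other qualifying genes tested. Members under 1000 bases made up 35.5%, against 21.5% and 9.38%. The median span on the genome was 4286 bases, against 7316.5 and 13944. The span was 3.72 times the gene length at the median, against 4.42 and 5.69, so that intron sequence took a smaller part of the locus. For 8 members, and for 198 of the 10317 other genes, span and gene length were equal, as in a gene model without introns.

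Members lay on all of chromosomes 1 to 15 and 17 to 24 that the ranking admitted, and on unplaced scaffolds. Chromosome 1 had 33 of them, followed by chromosome 4 with 17 and chromosome 2 with 16. Members were 1.73% of the qualifying genes tested on chromosomes 1 to 5 (90 of 5212) and 2.03% on chromosomes 6 to 24 (106 of 5220). Unplaced scaffolds held 4 members among 85 such genes (4.71%). Of the placed chromosomes, the share was highest on chromosome 24, with 6 of 139 genes (4.32%), and lowest on chromosome 20, with 1 of 278. The plus strand held 92 and the minus strand 108.

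Among tested genes, 8 pairs of members lay next to each other, and no expected number was worked out. The pair with the member of highest level lies on chromosome 12, ENSGALG00000037991 and ENSGALG00000026449, 5115 bases apart on opposite strands, with medians of 2610 and 752 FPKM. Another pair on chromosome 10, ENSGALG00000002157 and ENSGALG00000002160, lies 3992 bases apart on opposite strands, with medians of 2548 and 880 FPKM. Gene models overlapped on the same strand for 38 members (19.0%), against 10% of the next 200 and 10.6% of the other genes, and on the other strand for 35 (17.5%), against 13.5% and 17.5%. Fragments in such overlaps, or from near-identical copies elsewhere in the genome, could have been counted for either gene or for none.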

How the data were processed

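Per the labels' protocols, total RNA of thymus was isolated using Trizol and libraries followed the TruSeq kit. The submitters' processing notes name CASAVA 1.8, featureCounts 1.5.0-p3 and the build GRCg6a. Aligner, annotation release and strand setting: not given in the sources used here. FPKM values were made by the authors, who deposited them for 9 libraries with gene positions and lengths, per the file headers. No per-sample column was outside the series (0).

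FPKM times gene length fell on whole multiples of 1 step per library, with 100% of nonzero values whole to a tolerance of 0.01, which gave fragments per gene. Depth was 19618047 to 25863282 gene fragments per library. Libraries of a group were not identical and differed by more than counting error (chi-square per degree of freedom 14.9 to 281).

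Tests covered the 13506 of 25016 genes that reached 1 FPKM in 3 or more libraries, all 200 members among them. limma 3.58.1 in R 4.3.3 was fitted to log2(FPKM + 1), a pseudocount of 1, over all 9 libraries with a trended prior variance. Fold changes on this scale are understated for low genes. Two-sided p-values were adjusted by Benjamini-Hochberg over all genes tested. The fit was also run on simulated libraries drawn from a common profile of the libraries other than CON 3. None of them departed as CON 3 does, so that run does not show how the fit performs with CON 3 present. Shares were compared by exact permutation. Tables were made with Python 3.11.15. A RefSeq table of the GRCg7b assembly paired 0 of 25016 identifiers with a symbol, so the planned lists of named genes were not used and no sequences are shown.

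Text names the 10 highest members, the 2 higher and 2 lower with the smallest p in each comparison, the extremes of spread, of CON 3 and of length, and genes at the limit of rank 200. The members and tests were chosen with earlier results of these data known. Alternatives were other scalings, filters, weights, tools and left-out libraries.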

Additional observations from a re-analysis of the deposited data

How the results depend on the processing

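Under 20 other settings of the fit, LPS vs CON and GEN vs LPS stayed at 0 members past an adjusted p of 0.05. GEN vs CON gave 1 with library quality weights (ENSGALG00000016231, limma adjusted p 0.0498, log2 fold change 0.60), where 54 of 13506 genes passed, a setting that gave CON 3 a weight of 0.0491, and 0 under the other 19. Over all settings the adjusted p of that gene ranged from 0.0498 to 0.6997 in this comparison. With quantile normalization the median log2 fold change of the members was 0.050 in GEN vs CON and 0.030 in LPS vs CON, and ENSGALG00000010077 turned to 0.10 in GEN vs CON. This setting gives each rank 1 value in all libraries, so it removes any shift that the top ranks share. The other 238 of 240 fold changes of named members kept their sign and their side of the threshold.

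Leaving out 1 library gave 0 members in each comparison. The median log2 fold change then ranged from -0.46 to -0.12 in LPS vs CON, from -0.15 to -0.07 in GEN vs LPS and from -0.57 to -0.20 in GEN vs CON, the last without CON 3. The difference in share ranged from -3.57 to -1.14, from -1.52 to -0.797 and from -4.82 to -2.39 points. The number of members with an unadjusted p under 0.05 ranged from 3 (without LPS 2 or LPS 3) to 39 (without CON 1) in LPS vs CON, from 0 to 35 (without CON 3) in GEN vs LPS, and from 7 (without GEN 2) to 94 (without CON 2) in GEN vs CON. With 400 members the share of LPS 1 exceeded that of CON 2 and the exact permutation p in LPS vs CON was 0.2. Members ranked by mean FPKM shared 194 of 200, without CON 3 196, by fragments 146, with no length minimum 195 and with a minimum of 500 bases 186. The share with members ranked without CON 3, a setting added after the data were seen, differed by -2.64, -1.24 and -3.88 points. The replicate numbers do not pair the samples by any label. Deviations of libraries with the same number correlated at -0.10 to 0.34, with 4 of the 9 above 0.1. Between libraries of different groups and different numbers the range was -0.23 to 0.17. For 4 of 9 libraries the highest correlation was with a library of the same number. With a replicate block, 0 members passed in each comparison, and 12, 1 and 28 had an unadjusted p under 0.05, against 13, 1 and 50 without it. Of all genes, 679, 536 and 1375 did with the block and 611, 438 and 1459 without it.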
